A study of Mus musculus with 44 samples.

Results

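The genes described here are 9 enzymes and binding proteins that make, carry and remove retinoic acid, namely Aldh1a1, Aldh1a2, Aldh1a3, Rdh10, Dhrs3, Crabp1, Crabp2, Rbp4 and Cyp26b1. They form a named list, matched by gene symbol to the Ensembl mouse identifiers of the deposited count tables. They are 9 of 55487 genes, and all 9 were found in both tables. RNA was sequenced from the mouse nucleus accumbens, a ventral part of the striatum whose neurons are mostly medium spiny projection neurons. A virus had delivered either RXRa, the nuclear receptor retinoid X receptor alpha, or a fluorescent protein alone. Bulk tissue came from males given a herpes simplex virus vector, with 4 libraries of HSV-GFP and 4 of HSV-RXRa-GFP. Cell-type-specific libraries, labelled D1 or D2 after the dopamine receptors of the main projection neuron types, came from both sexes, and how the cells or their nuclei were isolated is not given in the sources used here. Their vector was AAV9-CAG-DIO-EGFP or AAV9-CAG-DIO-EGFP-P2A-RXRa. With EGFP there were 5 D1 female, 5 D1 male, 4 D2 female and 5 D2 male libraries, and with RXRa there were 4 libraries in each of these groups. CAG is a promoter active in most cell types, DIO marks an insert that is read only in cells with Cre recombinase, and P2A lets a single transcript give EGFP and RXRa as separate proteins. The mouse lines that supplied Cre, the ages, the time after infusion and any pooling of animals are not given in the sources used here. Nothing there says that the libraries of a group came from separate animals, so p-values measure the spread between these libraries, which may be technical. Bulk tissue also holds cells that the virus did not reach.

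Total counts were 21567565 to 29167142 in the 8 bulk libraries and 12211655 to 27757463 in the 35 cell-type libraries that enter comparisons. The vector RXRa sequence had 0 counts in the 4 bulk GFP libraries and at most 17 counts in any of the 19 cell-type libraries given EGFP. Its level was 22.1 to 37.7 CPM (counts per 1000000, scaled by the TMM method) in bulk RXRa and 43.9 to 684 CPM in the 16 cell-type RXRa libraries. Between the EGFP groups, Drd1 was lower in D2 than in D1, at a log2 fold change of -2.03, and Drd2 was higher, at 3.47. Library 4 of the D2 female RXRa group had the highest level of the vector sequence, 684 CPM. Without it, 0 of 44402 genes tested were called for RXRa against EGFP in D2, so D2 results are given with and without it. "Called" means a Benjamini-Hochberg adjusted p under 0.05 in edgeR's quasi-likelihood test, adjusted over all genes tested, and every adjusted p below is of this kind unless another test is named.

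Retinol travels in blood bound to Rbp4, the plasma retinol carrier. Inside cells Rdh10 oxidises retinol to retinaldehyde, Dhrs3 reduces retinaldehyde back to retinol, and the retinaldehyde dehydrogenases Aldh1a1, Aldh1a2 and Aldh1a3 turn it into retinoic acid. Crabp1 and Crabp2 bind retinoic acid in the cytoplasm, Crabp2 passes it to nuclear receptors, and Cyp26b1 breaks it down. Retinoic acid acts on RAR receptors, which bind DNA as partners of RXRs. In the brain Aldh1a1 is known as a marker of a group of midbrain dopamine neurons and Aldh1a2 as an enzyme of the meninges.

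Since RAR and RXR bind repeated hexamers, the promoters of the 9 genes were searched for them. RefSeq windows of 300 bases on GRCm38.p6, from 250 bases before to 50 after a transcription start, were at hand for 6 of the 9 genes in 10 windows, and Aldh1a3, Crabp2 and Rdh10 had none. The hexamers searched on both strands were AGGTCA and its variants, namely AGTTCA as well as GGGTCA and also GGTTCA, alone or as direct repeats with 1, 2 or 5 bases between them, so each repeat also counts as a single hexamer. A single hexamer was found in 2 of the 10 windows, against 43.7% of all 32851 windows. No repeat was found in them, and repeats were held by 0.222%, 0.268% and 0.0974% of all windows at spacings of 1, 2 and 5. The 2 stretches from the list are shown first, and the repeats of Rarb, a retinoic acid receptor gene, and Cyp26a1, a retinoic acid hydroxylase, follow to show what the search finds. Each is written 5′ to 3′ on the gene's strand, with the match in capitals, and TGACCC is the hexamer GGGTCA read on the other strand.
Aldh1a1, chr19:20601899-20601944, plus strand: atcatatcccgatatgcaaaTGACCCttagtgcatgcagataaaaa
Rbp4, chr19:38125349-38125394, minus strand: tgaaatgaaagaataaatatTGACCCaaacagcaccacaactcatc
Rarb, chr14:16575493-16575549, minus strand: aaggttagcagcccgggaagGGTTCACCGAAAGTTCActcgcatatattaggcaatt
Cyp26a1, chr19:37697756-37697807, plus strand: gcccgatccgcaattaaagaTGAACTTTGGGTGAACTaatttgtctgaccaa
A match is a run of letters and not a measured binding site, and the absence of a match in these windows says nothing of sequence elsewhere.

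In bulk tissue, whose libraries were made from polyadenylated RNA, Rdh10 and Dhrs3 and the binding proteins Crabp1 and Rbp4 had the highest mean levels. On the scale of CPM per kb of exon, means over the 8 libraries were 8.93 ± 2.76 (SD, n = 8) for Crabp1, 7.79 ± 0.431 (SD, n = 8) for Dhrs3, 7.11 ± 1.71 (SD, n = 8) for Rbp4 and 6.18 ± 0.778 (SD, n = 8) for Rdh10. The ranges of these 4 genes overlapped, so their order is not settled by the spread between libraries. The dehydrogenases followed, with 3.77 ± 0.958 (SD, n = 8) for Aldh1a1 and 1.82 ± 0.602 (SD, n = 8) for Aldh1a2, whose ranges did not overlap. The ranges of Rdh10 and Aldh1a1 did overlap, although Rdh10 was above Aldh1a1 in each of the 8 libraries. Crabp2 had 0.895 ± 0.170 (SD, n = 8) and the hydroxylase Cyp26b1 had 0.557 ± 0.131 (SD, n = 8), and these overlapped. Aldh1a3, at chromosome 7, 66390890 to 66427517 on the minus strand, was lowest at 0.0906 ± 0.0289 (SD, n = 8), below every value of Cyp26b1, and its counts were only 6 to 16 reads in a library. The highest mean on this scale was 98.6 times the lowest.

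**Figure D1:**
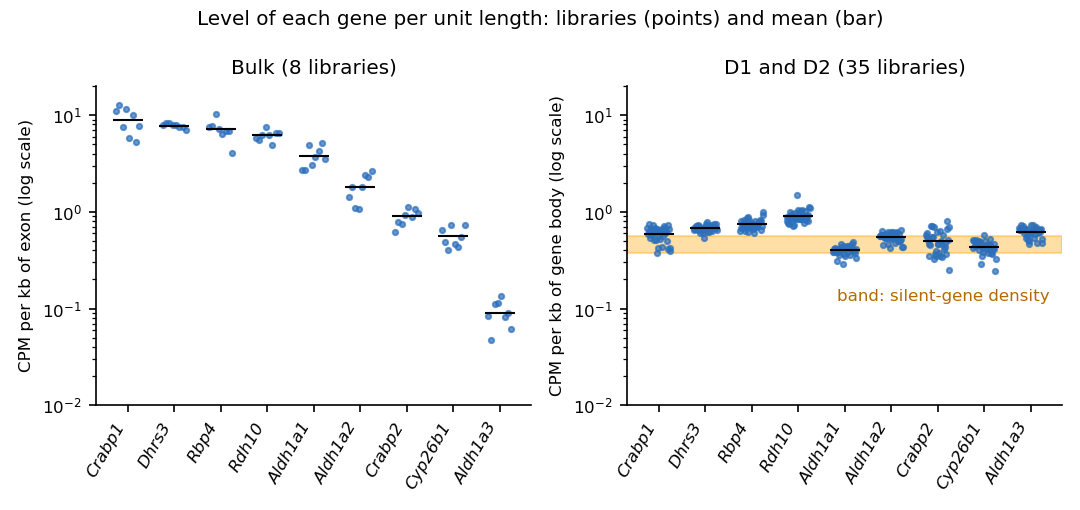
Level of each gene per unit of length on a log axis, in 8 bulk libraries as CPM per kb of exon (left) and in 35 cell-type libraries as CPM per kb of gene body (right), with libraries as points and means as bars. The bulk means run from 8.93 down to 0.0906, while in the cell-type libraries the genes lie in or near the band that marks the lowest to highest silent-gene density, 0.372 to 0.566 CPM per kb.

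None of the 9 genes was called for RXRa against GFP in bulk, where 3.70% of the 18579 genes tested were called, and 3 of the 9 had an unadjusted p under 0.05, as did 21.5% of all genes. The groups did not overlap for 2 of the 9, Aldh1a2 and Rbp4, and this also held for 13.2% of all genes tested, so it does not set the list apart. Aldh1a2, which lies at chromosome 9, 71215789 to 71296243 on the plus strand of GRCm38, had 3.22, 4.05, 2.48 and 2.44 CPM in GFP libraries 1 to 4. It had 4.06, 5.50, 5.25 and 5.99 CPM in RXRa libraries 1 to 4, so that every RXRa library was above every GFP library. The log2 fold change was 0.77 (SE 0.19) with an adjusted p of 0.0631, just outside the threshold. It was called by DESeq2 with an adjusted p of 0.00541, where 8.47% of genes were called, with no filter on low counts with an adjusted p of 0.0423, and without RXRa library 1, at 0.88 with an adjusted p of 0.0372. In the last 2 fits 2.48% and 5.38% of genes were called. The levels of 14 meningeal and fibroblast markers summed to 132 to 198 CPM in GFP libraries and 166 to 242 CPM in RXRa libraries, and none was at 0. Of the 14, 2 were called higher, Dcn at 0.85 and Col1a1 at 0.83, and 12 were not called, with a median of 0.27 over the list. Among the 12, the largest rises were Col3a1 at 1.09 with an adjusted p of 0.0707, Lum at 0.73 and Col1a2 at 0.63. Igf2 at -0.53, Slc6a13 at -0.31 and Pdgfra at -0.11 were lower, and the rest were higher. Across the 8 libraries the log2 sum and Aldh1a2 had a Pearson r of 0.77, and Aldh1a2 had an r of 0.69 with endothelial and mural markers and 0.62 with microglia markers. The difference between groups enters each of these values. The part of these markers in the Aldh1a2 result was not tested. In bulk tissue a change in the number of cells of a type and a change in RNA per cell cannot be told apart.

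Rbp4, at chromosome 19, 38116629 to 38125281 on the minus strand, had 283, 284, 375 and 258 counts in GFP libraries 1 to 4, which is 9.67 to 13.9 CPM. In the RXRa libraries it had 8.58, 9.24, 9.30 and 5.50 CPM, each below the lowest GFP value. Its log2 fold change was -0.42 (SE 0.18), with an adjusted p of 0.221. Across the 8 libraries Rbp4 had an r of 0.92 with the sum of 12 striatal interneuron markers, which was 437 to 578 CPM with GFP and 359 to 482 CPM with RXRa. Its r was 0.75 with midbrain dopamine neuron markers and -0.72 with meningeal markers, and the part of any of these in the Rbp4 result was not tested. Crabp1, at chromosome 9, 54764748 to 54773110 on the plus strand, had 8.80, 10.2, 6.10 and 9.26 CPM with GFP and 4.60, 8.01, 4.19 and 6.19 CPM with RXRa. The groups overlapped, and the log2 fold change was -0.57 (SE 0.23) with an adjusted p of 0.186. Its lowest values in each group were in the libraries with the most cortical marker RNA. The sum of 9 cortical excitatory markers was 811 CPM in GFP library 3, 535 CPM in RXRa library 1 and 616 CPM in RXRa library 3, and 66.9 to 162 CPM in the other 5 libraries. None of the 9 markers was at 0 in either group. Without these 3 libraries, a choice made after the values were seen, the log2 fold change of Crabp1 was -0.38 with an adjusted p of 0.210.

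**Figure D2:**
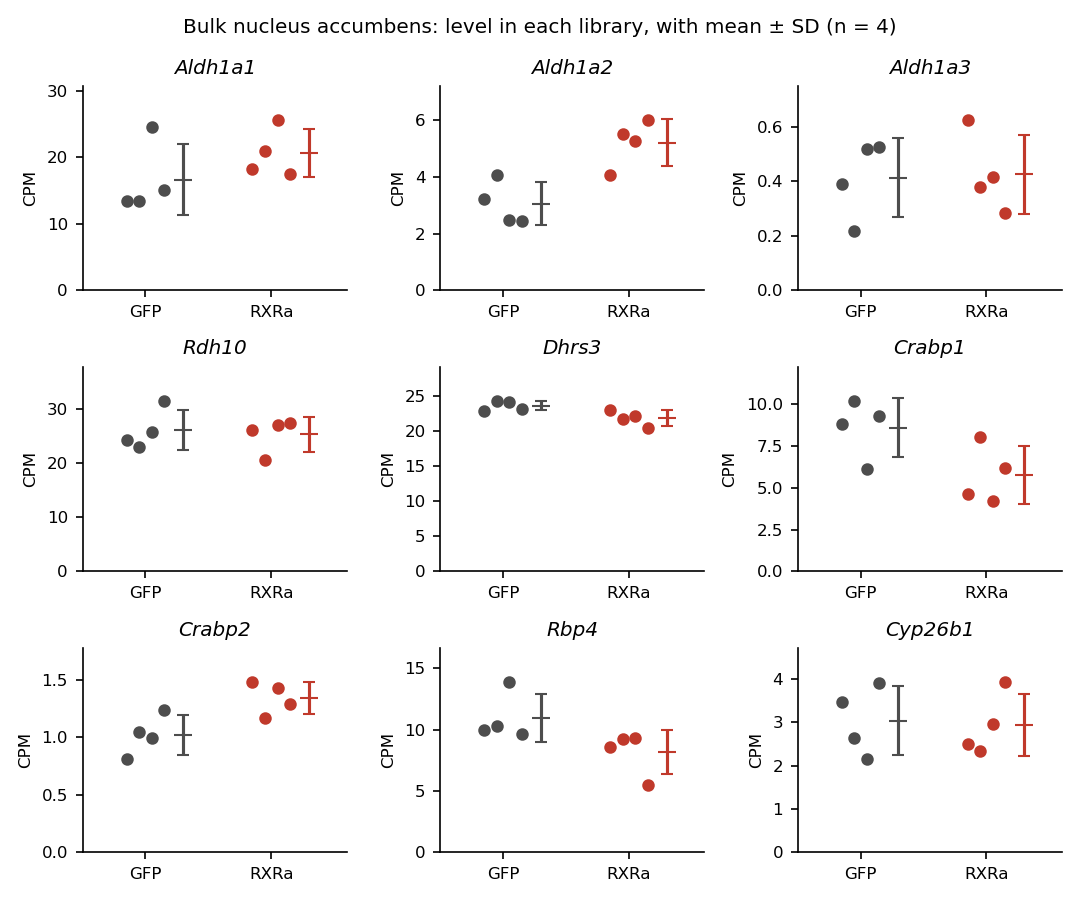
CPM of each gene in the 4 GFP (grey) and 4 RXRa (red) bulk libraries, drawn as points in library order, with the group mean ± SD beside them and each axis starting at 0. Every RXRa value of Aldh1a2 (4.06 to 5.99 CPM) lies above every GFP value (2.44 to 4.05 CPM), and the reverse holds for Rbp4.

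Aldh1a1, at chromosome 19, 20492715 to 20643465 on the plus strand, had 13.5, 13.4, 24.5 and 15.1 CPM with GFP and 18.3, 20.9, 25.6 and 17.6 CPM with RXRa. Only GFP library 3 overlapped the RXRa group. The log2 fold change was 0.31 (SE 0.21) with an adjusted p of 0.421. Without the 3 libraries rich in cortical markers, of which GFP library 3 is 1, it was 0.49 with an adjusted p of 0.0395, the only call among the 9 genes in that fit, where 5.84% of all genes were called. GFP library 3 was also the highest in midbrain dopamine neuron markers, a list of 7 genes that includes Th and Slc6a3, at 68.3 CPM against 32.7 to 39.8 CPM in the other 7 libraries, and none of the 7 was at 0. Over all 8 libraries the r of Aldh1a1 was only 0.35 with these markers. It was 0.78 with cortical excitatory, 0.53 with striatal interneuron and -0.84 with choroid plexus markers. The part of any of these markers in the Aldh1a1 result was not tested. The other genes differed less. Crabp2, at chromosome 3, 87948666 to 87953376 on the plus strand, had a log2 fold change of 0.39 (SE 0.17) with an adjusted p of 0.238, and Dhrs3 one of -0.11 (SE 0.06) with an adjusted p of 0.328. Cyp26b1, Rdh10 and Aldh1a3 had log2 fold changes of -0.06, -0.05 and 0.05, with SEs of 0.23, 0.12 and 0.34. Aldh1a1 overlaps the opposite-strand genes C730002L08Rik and Gm6684, and Aldh1a2 overlaps the opposite-strand pseudogene Gm48124. Whether counting used strand is not given in the sources used here, so reads of these partners cannot be told apart.

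The cell-type libraries, made from total RNA without ribosomal RNA, gave a different picture of the same genes. A measure of evenly spread reads was taken from genes with 0 counts in every bulk library, limited to the 1576 that are protein-coding, autosomal and no shorter than 5 kb. Their median level per kb of gene body, in CPM, is called silent-gene density here and was 0.372 to 0.566 in the 35 libraries. Counts of these silent genes followed the length of the gene body (Spearman's rho 0.797 across genes) and not the length of exons (0.066), where genes are not independent replicates. Most of the 9 retinoid genes lay close to this density, and Rdh10 and Rbp4 lay above it. The means of the 9 per kb of gene body differed by 2.27 times from lowest to highest, against 10.8 times per kb of exon.

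Each gene's level was therefore also divided by the silent-gene density of its own library, a ratio that no scaling of libraries can move. Aldh1a1 was below 1 in all 35 libraries, with a lowest, median and highest ratio of 0.721, 0.807 and 0.889. Cyp26b1 ran from 0.509 through 0.881 to 1.37, Crabp2 from 0.533 through 0.966 to 1.83 and Aldh1a2 from 0.905 through 1.11 to 1.28. Crabp1 had a median of 1.18, Aldh1a3 of 1.26 and Dhrs3 of 1.31. Aldh1a1, Aldh1a2, Aldh1a3, Cyp26b1, Crabp1 and Dhrs3 never exceeded the 95th percentile of the silent genes, and Crabp2 did so in 2 libraries. The reads of these genes in the cell-type libraries were not distinguished from those of genes with no bulk counts. The remaining 2 genes stood above them more often. Rdh10, at chromosome 1, 16105774 to 16133734 on the plus strand, ran from 1.38 through 1.74 to 4.04 and exceeded the 95th percentile in 23 of 35 libraries. Rbp4 ran from 1.09 through 1.49 to 2.41 and exceeded it in 11. Dhrs3, at chromosome 4, 144892827 to 144928209 on the plus strand, was above 1 in all 35 libraries while staying inside the range of the silent genes.

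**Figure D3:**
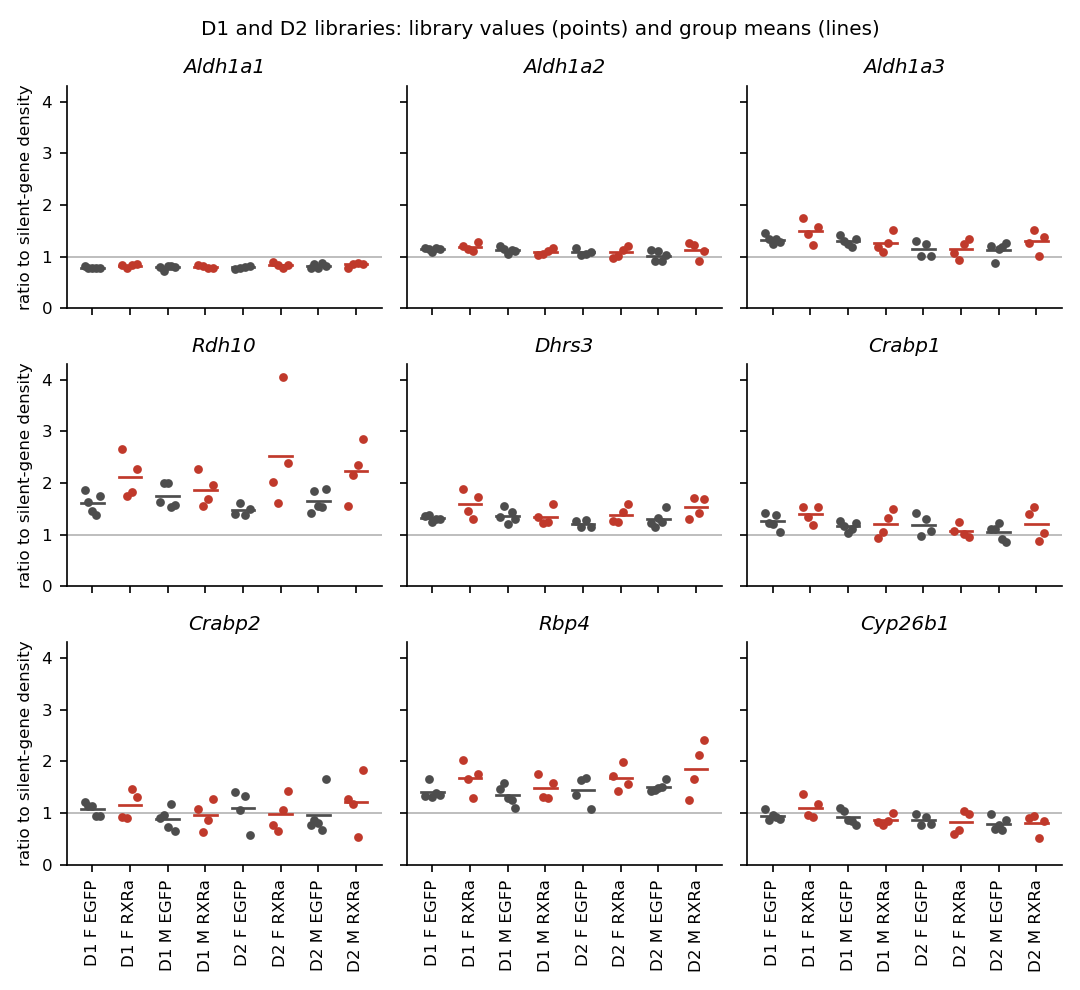
Ratio of each gene's CPM per kb of gene body to the silent-gene density of the same library, for the 8 cell-type groups (F female, M male), with libraries as points, group means as lines, EGFP in grey and RXRa in red. The grey line marks a ratio of 1, and Rdh10 in D2 with RXRa reaches 4.04 while Aldh1a1 stays between 0.721 and 0.889.

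In D1 none of the 9 genes was called for RXRa against EGFP over both sexes. The background was also 0.00%, since none of the 43902 genes tested was called. The log2 fold changes lay between -0.12 (SE 0.07) for Aldh1a2 and 0.11 (SE 0.09) for Rdh10, and none of the 9 had an unadjusted p under 0.05, as 8.01% of all genes did. No gene was called within a sex either, where the background was again 0.00% for D1 females and for D1 males and none of the 9 had an unadjusted p under 0.05. The groups of all 9 genes overlapped in both sexes. DESeq2 and limma voom likewise called none of the 9 in D1.

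In D2, 1 of the 9 genes, Rdh10, was called for RXRa against EGFP. The background was 22.1% of the 43902 genes tested called in either direction, and 14.9% of the genes tested called higher, so the count for the list is no greater than that of genes at large. Rdh10 had 20.0, 23.7, 20.4 and 23.7 CPM in the D2 female EGFP libraries, numbered 1, 3, 4 and 5. It had 27.2, 24.0, 42.1 and 29.2 CPM in the female RXRa libraries, numbered 2 to 5. All 4 female RXRa values were above the female EGFP values. In D2 males it had 21.4, 28.4, 23.2, 23.6 and 25.5 CPM with EGFP and 22.7, 26.1, 31.3 and 30.7 CPM with RXRa, and the groups overlapped. The log2 fold change over both sexes was 0.36 (SE 0.09) with an adjusted p of 0.0123.

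The Rdh10 call was lost without female RXRa library 4, which had 42.1 CPM. Without it the log2 fold change was 0.24 with an adjusted p of 0.0642, and in the D2 libraries fitted alone it was 0.38 with an adjusted p of 0.0501. Silent-gene density was lower with RXRa in D2, by a mean log2 difference of -0.23, and lowest of all in that library, at 0.372 CPM per kb. With density as a covariate the Rdh10 value was 0.12 with an adjusted p of 0.9999, and no gene was called in D2. Markers of striatal projection neurons rose in the same comparison. Of 9 such genes, 7 were called higher, with a median log2 fold change of 0.57 against -0.04 over all genes. The sum of the 9 was 1867 to 2115 CPM in D2 female EGFP and 1945 to 3900 CPM in D2 female RXRa libraries, and 1691 to 2556 and 1862 to 4235 CPM in males, with none at 0. The part of density and of these markers in the Rdh10 result was not tested beyond the covariate.

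As a ratio to silent-gene density, Rdh10 in D2 was higher with RXRa by a log2 difference of 0.55. The mean ratio was 1.47 ± 0.106 (SD, n = 4) in female EGFP and 2.52 ± 1.07 (SD, n = 4) in female RXRa, and 1.65 ± 0.209 (SD, n = 5) against 2.23 ± 0.534 (SD, n = 4) in males. An exact two-sided permutation test within sex gave p = 0.00272, and 0.0490 after Benjamini-Hochberg adjustment over 18 such tests. Leaving out each of the 17 D2 libraries gave log2 differences of 0.42 to 0.64 and unadjusted exact p-values of 0.000510 to 0.00771. Adjusted over the same 18 tests these were 0.00918 to 0.135, and only 3 of the 17 stayed under 0.05, those without female RXRa library 3, male EGFP library 5 or male RXRa library 1. Without any 1 of the other 14 libraries the call was lost, at 0.0612 without female RXRa library 4. The ratio rises for any gene whose reads exceed the density when the density falls, so it does not separate Rdh10 from the density itself. Rdh10 in D1 gave 0.24 with an adjusted exact permutation p of 0.251. Dhrs3 in D2 gave 0.21 with an adjusted exact p of 0.132, and Rbp4 in D2 gave 0.25 with an adjusted exact p of 0.251. No p below 0.000113 in D2 or 6.30e-05 in D1 can come from these permutations.

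**Figure D4:**
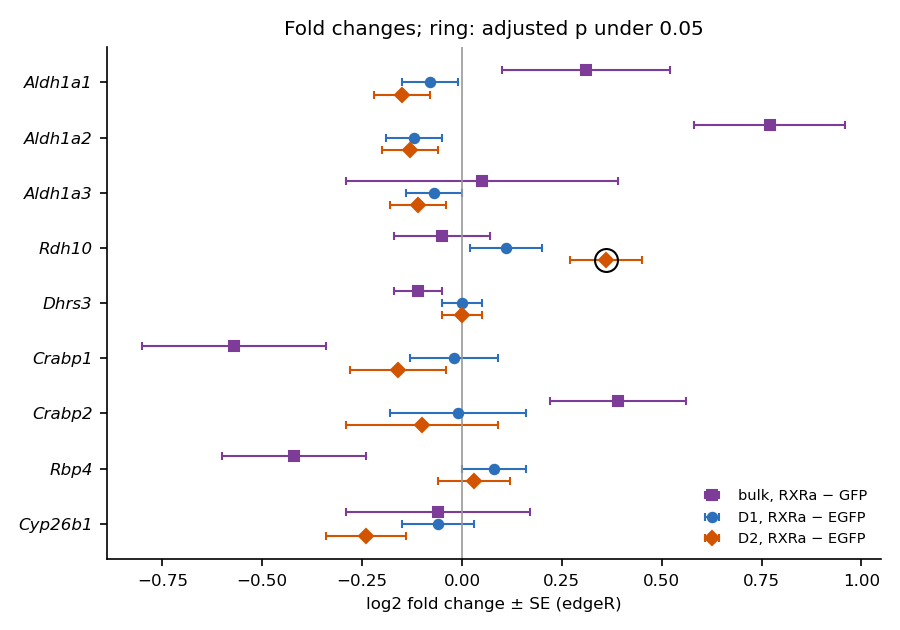
Log2 fold change ± SE of each gene for RXRa against its control in bulk tissue (squares), D1 (circles) and D2 (diamonds), with a ring where the adjusted p is under 0.05. The ring marks Rdh10 in D2 at 0.36, and Aldh1a2 in bulk has the highest value at 0.77 without passing the threshold.

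The other 8 genes were not called in D2. Cyp26b1, at chromosome 6, 84571414 to 84593908 on the minus strand, had a log2 fold change of -0.24 (SE 0.10) with an adjusted p of 0.0610. Aldh1a1, Aldh1a2 and Aldh1a3 had -0.15, -0.13 and -0.11, each with an SE of 0.07, and Crabp1 and Crabp2 had -0.16 (SE 0.12) and -0.10 (SE 0.19). Rbp4 and Dhrs3 were at 0.03 (SE 0.09) and 0.00 (SE 0.05). The sizes of these values and the count called depended on the scaling, and the sign of Rbp4 did too. With library totals in place of TMM the median log2 fold change of all genes moved from -0.04 to -0.20, the share of calls that were higher fell from 67.6% to 18.1%, and 5 of the 9 genes were called, with 25.9% of all genes. Aldh1a1, Aldh1a2, Aldh1a3 and Cyp26b1 were then lower, at -0.30, -0.28, -0.27 and -0.40, and Rdh10 was higher at 0.17. Cyp26b1 was also called without female EGFP library 3, female RXRa library 5 or male RXRa library 1, at -0.27, -0.31 and -0.32. Aldh1a1 was called without female RXRa library 3, at -0.18, and Aldh1a2 without male RXRa library 1, at -0.20. In these 4 fits 21.1% to 33.3% of all genes were called. Without female RXRa library 4, where no gene was called, Cyp26b1, Aldh1a1 and Aldh1a2 were at -0.28, -0.11 and -0.12. Their adjusted p-values were then 0.0941, 0.283 and 0.301. Divided by silent-gene density, Cyp26b1 differed by -0.06 and the 3 dehydrogenases by 0.06 to 0.10, with adjusted exact permutation p-values of 0.323 to 0.807.

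Within D2 females and D2 males alone, none of the 9 genes was called, on a background of 0.00% in each sex, with edgeR. An unadjusted p under 0.05 was found for 5 of the 9 in females, as for 25.2% of all genes, and for 0 in males, as for 19.7% of all genes. Rdh10 had log2 fold changes of 0.51 (SE 0.13) in females and 0.20 (SE 0.12) in males, with adjusted p-values of 0.0953 and 0.353. DESeq2 called 1 of the 9 in females and 20.5% of all genes. Without female RXRa library 3, Rdh10 and Crabp1 were called in females, at 0.61 and -0.53, with 15.1% of all genes. The difference between the sexes in the RXRa effect was 0.31 (SE 0.18) for Rdh10 in D2, and none of the 9 genes was called for that difference in D1 or in D2, both on a background of 0.00%. The difference between D2 and D1 in the RXRa effect was 0.24 (SE 0.12) for Rdh10 with an adjusted p of 0.602, on a background of 0.00%. The Rdh10 effect was therefore not shown to differ between the populations or the sexes.

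Between the populations themselves, none of the 9 genes was called for D2 against D1 with EGFP, where 0.121% of genes were called. An unadjusted p under 0.05 was found for 1 of the 9 and for 10.5% of all genes. The values lay between -0.16 (SE 0.06) for Aldh1a3 and 0.15 (SE 0.08) for Rbp4. With RXRa the background was 8.36% and again none of the 9 was called while 3 had an unadjusted p under 0.05, as did 26.5% of all genes, the nearest being Cyp26b1 at -0.29 (SE 0.10) with an adjusted p of 0.0521 and Aldh1a3 at -0.20 (SE 0.07) with an adjusted p of 0.0608. DESeq2 called both, at -0.27 and -0.18, with 19.3% of all genes. Both were also called without D1 male RXRa library 1, D2 female RXRa library 5, D2 male RXRa library 1 or D2 male RXRa library 2, at -0.32 to -0.36 for Cyp26b1 and -0.23 to -0.26 for Aldh1a3. Rdh10 was called without D2 male RXRa library 1, at 0.24. In these fits 9.34% to 22.3% of all genes were called. Without D2 female RXRa library 4, Cyp26b1 was at -0.33, Aldh1a3 at -0.20 and Rdh10 at 0.07. Their adjusted p-values were then 0.125, 0.159 and 0.631, and 118 of 44402 genes were called. Cyp26b1 had 10.9 ± 0.556 CPM (SD, n = 4) in D1 and 8.15 ± 1.27 CPM (SD, n = 4) in D2 of RXRa females, which did not overlap, and 9.61 ± 0.878 CPM (SD, n = 4) and 8.10 ± 2.23 CPM (SD, n = 4) in males, which did. Its ratio to silent-gene density stayed within the range of silent genes in all of these libraries. Between females and males with EGFP none of the 9 was called, on a background of 4.43%, and none had an unadjusted p under 0.05, with values from -0.15 (SE 0.08) for Rdh10 to 0.21 (SE 0.17) for Crabp2.

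Within the RXRa libraries, the ratio of each gene to silent-gene density was set against the level of the vector RXRa sequence, an analysis chosen after the counts were seen. In the 8 D2 libraries Rbp4 had a Pearson r of 0.94 (exact permutation p = 0.000645, 0.0116 after adjustment over 18 relations). Its Spearman's rho was 0.90 (exact p = 0.00456, adjusted 0.0652), and r was 0.96 without the 2 libraries farthest from the median vector level. Rdh10 had an r of 0.85 (exact p = 0.00580, adjusted 0.0522), a rho of 0.88 (exact p = 0.00724, adjusted 0.0652) and an r of 0.74 without those libraries. Silent-gene density itself had an r of -0.73 with the vector level across these libraries, so the denominator moves with it. The CPM of Rbp4 and Rdh10, which do not use the density, had r values of 0.71 and 0.87. On that scale the other 7 genes had negative values, from -0.35 for Crabp2 to -0.88 for Crabp1 and -0.98 for Aldh1a2. The sum of projection neuron markers moved with the vector level in the same 8 libraries, from 1862 to 4235 CPM, with an r of 0.88 and a rho of 0.90 on log2 values, and its part in the Rbp4 and Rdh10 relations was not tested. In the 8 D1 libraries r was 0.31 for Rbp4 and 0.35 for Rdh10, and both turned negative, to -0.63 and -0.39, without the 2 farthest libraries. A sex held only 4 RXRa libraries in a population, too few for a relation within sex. The other 7 genes had r from -0.72 to 0.51 over both populations, none past the threshold after adjustment.

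**Figure D5:**
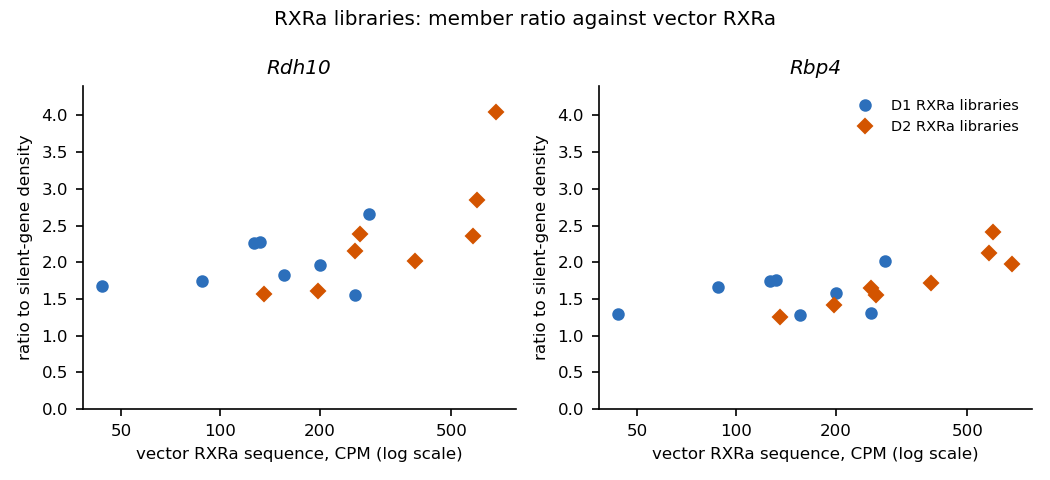
Ratio to silent-gene density of Rdh10 (left) and Rbp4 (right) against the CPM of the vector RXRa sequence, on a log horizontal axis, in the 8 D1 (circles) and 8 D2 (diamonds) RXRa libraries. Across the D2 libraries r is 0.85 for Rdh10 and 0.94 for Rbp4, and the vector level runs from 136 to 684 CPM in D2 and from 43.9 to 282 CPM in D1.

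The rest of the retinoid pathway was described with a list of 36 further enzymes, carriers and transporters. In bulk 3.70% of all genes tested were called and 21.5% had an unadjusted p under 0.05. Of the 36 genes, 23 passed the filter on low counts in bulk and none was called. Their median log2 fold change was 0.04 against -0.02 over all genes, and 4 had an unadjusted p under 0.05. The smallest p-values belonged to Adh1, an alcohol dehydrogenase, at 0.67 (SE 0.18) with an adjusted p of 0.0777, and Dgat1, an acyltransferase, at 0.26 (SE 0.09) with an adjusted p of 0.159. None of the 6 retinoic acid receptor and RXR genes and none of 14 tested genes known to respond to retinoic acid was called in bulk, where 2 and 5 had an unadjusted p under 0.05. The latter list holds Cyp26b1, Dhrs3 and Crabp2. In D1 all 36 pathway genes were tested and none was called, on a background of 0.00%. The smallest p-values were those of Cyp1b1, a cytochrome P450, at -0.24 (SE 0.09) with an adjusted p of 0.584 and Adh1 at -0.14 (SE 0.07) with an adjusted p of 0.620.

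In D2 with RXRa, 4 of the 36 pathway genes were called, 2 in each direction, on the background of 22.1%. Lpl, lipoprotein lipase, rose by 0.44 (SE 0.10) and Dgat1 by 0.35 (SE 0.11). Lrat, which esterifies retinol, had a log2 fold change of -0.28 (SE 0.10) and Dhrs9, a retinol dehydrogenase, of -0.20 (SE 0.07), both called. Neither Lrat nor Dhrs9 passed the filter on low counts in bulk. Silent-gene density was also lower with RXRa in D2, by a mean log2 difference of -0.23. With density as a covariate no gene was called in D2, and the part of density in these values was not tested beyond that. Among the receptors 1 of 6 was called, Rarb at 0.59 (SE 0.17), and among the responsive genes 3 of 16 were, Rarb, Rai1 at 0.39 (SE 0.11) and Meis2 at 0.73 (SE 0.17). Rarb and Meis2 are also transcripts of striatal neurons, whose markers moved the same way in D2. The part of those markers in the Rarb and Meis2 calls was not tested. In bulk Rarb was at -0.22 (SE 0.09) and Meis2 at -0.24 (SE 0.06), neither called. Of the projection neuron markers in bulk, Bcl11b at -0.31 and Foxp1 at -0.29 were called lower, on the background of 3.70%. Rasd2 was at 0.04 and the rest were below 0 without a call. The part of these markers in the bulk values of Rarb and Meis2 was not tested. None of the pathway, receptor and responsive genes called in D2 and named here was called without female RXRa library 4. There Lpl was at 0.38, Rarb at 0.45 and Meis2 at 0.59, with adjusted p-values of 0.0569, 0.0879 and 0.0586. Between D2 and D1 with RXRa, 4 of the 36 were called, on the background of 8.36%. Rdh14, a retinal reductase, was higher in D2 at 0.75 (SE 0.23), Fabp5, a fatty acid and retinoic acid carrier, at 0.68 (SE 0.20) and Lpl at 0.38 (SE 0.10), while Bco1, which cleaves carotene, was lower at -0.25 (SE 0.07). Without female RXRa library 4 none of these 4 was called, at 0.62, 0.61, 0.32 and -0.25, and 118 of 44402 genes were called in that comparison. Bco1 did not pass the filter on low counts in bulk. With EGFP none of the 36 was called between D2 and D1, the smallest p-values being those of Stra6, a retinol transporter, at -0.19 (SE 0.08) and Bco1 at -0.14 (SE 0.07). Between the sexes with EGFP 1 of the 36 was called, on the background of 4.43%. This was Awat2, an acyltransferase gene, which was higher in females at 1.03 (SE 0.07). Awat2 did not pass the filter on low counts in bulk, and its level was not set against the silent-gene density, which rests on autosomal genes only. Whether the Awat2 value reflects a difference in its RNA was not tested.

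The genes whose level followed each of the 9 most closely were listed by Pearson's r of log2(CPM + 1) as a description, over 8 bulk libraries among 14234 protein-coding genes and over 35 cell-type libraries among 20159. With so few bulk libraries high values arise for many genes. In bulk the closest were Clec4e at 0.99 for Aldh1a2, Abca3 at 0.985 for Dhrs3, Ctnnd2 at 0.982 for Rbp4, Commd10 at 0.979 for Crabp1, Efr3a at 0.964 for Aldh1a1, Cdkn2b at 0.963 for Cyp26b1, 2610008E11Rik at 0.949 for Rdh10 and Clec1a at 0.944 for Crabp2. Aldh1a3 was under 1 CPM there and was left out. In the cell-type libraries the closest were F830045P16Rik at 0.952 for Aldh1a2, Arhgap42 at 0.944 for Aldh1a1, Cuedc1 at 0.93 for Aldh1a3, Ccnyl1 at 0.922 for Rdh10, Twist2 at 0.903 for Cyp26b1 and Gm973 at 0.863 for Crabp1. Rbp4, Dhrs3 and Crabp2 had no gene above 0.79, 0.771 and 0.721.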

How the data were processed

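The deposited values are whole-number counts of reads per gene, made by the authors with no normalization. The submitters' processing notes name FastQC, Trimmomatic, HISAT2, Picard, featureCounts, Subread and the build GRCm38. Their versions, the annotation used, and whether strand or introns counted are not given in the sources used here. Per the labels' protocols, bulk libraries were poly(A)-selected and cell-type libraries were rRNA-depleted total RNA from a stranded low-input kit, so levels were compared within a table only. The 2 vector sequences in each table did not enter library totals or any test.

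The whole tables were fitted with edgeR 4.0.16 (R 4.3.3), with filterByExpr, TMM and the quasi-likelihood test. Bulk was fitted as 2 groups and the 35 assigned cell-type libraries as 8, in 13 contrasts with sexes weighted equally, and Benjamini-Hochberg adjustment ran over all genes tested. Standard errors come from the log2 fold change and its F statistic. The scripts were tested on simulated data. Alternatives were RLE size factors, library totals, other filters on low counts, DESeq2 1.42.0, limma voom 3.58.1, a replicate block, silent-gene density as a covariate, the compared libraries alone and each library left out. Permutation tests used SciPy 1.17.1. Lengths and positions are from GENCODE M21, which holds 55394 of the 55487 identifiers. The 72 pairs of replicates differed beyond sampling noise, with a chi-square per degree of freedom of 1.67 to 53.6. The highest values, 44.7 to 53.6, were those of D1 male EGFP library 2 against the others of its group, and no other pair was above 25.3.

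The genes and lists were chosen with earlier results of these data known. Genes named are the 9, and from the pathway list up to 3 called genes in each direction by size with a mean of at least 1 CPM, or the 2 of smallest p where none was called. From the receptor and responsive lists called genes are named, and for likeness the closest of the 3 listed. Of the list genes, Plaat3 and Gpr52 were not matched.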

Additional observations from a re-analysis of the deposited data

Results flagged for a closer look

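In 7 of 90 sets of 4 or 5 libraries of a group (9 genes in 10 groups), 1 library lay far from the others by Dixon's test on CPM. Chance alone gives about 5% of such sets. In bulk GFP library 3, Aldh1a1 had 24.5 CPM against 13.4 to 15.1 CPM in the other 3, and Rbp4 had 13.9 CPM against 9.67 to 10.3 CPM. That library also had the highest sums of cortical and midbrain dopamine neuron markers. Aldh1a1 had 52.3 CPM in D1 male EGFP library 2 against 63.0 to 66.6 CPM, and Aldh1a3 had 17.4 CPM in D2 male EGFP library 2 against 22.3 to 23.8 CPM. Crabp2 had 2.92 CPM in D2 female RXRa library 5 against 1.64 to 1.84 CPM, and 3.76 CPM in D2 male EGFP library 5 against 1.74 to 2.23 CPM. Rbp4 had 6.99 CPM in D1 male RXRa library 1 against 6.09 to 6.23 CPM.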

How the results depend on the processing

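None of the 9 genes was called in bulk in the fit reported. Aldh1a2 was the 1 gene called with no filter on low counts and the 1 called by DESeq2, and Aldh1a1 the 1 called without the libraries rich in cortical markers. Leaving out each library gave 0 to 1. In D2 over both sexes, 1 gene was called in the fit reported, 5 with library totals, 0 with silent-gene density as a covariate, 0 in the D2 libraries alone and 0 to 3 when each library was left out. In D2 females DESeq2 called 1 and leaving out each library gave 0 to 2. Between D2 and D1 with RXRa, a mean of at least 1 CPM gave 1, DESeq2 gave 2 and leaving out each library gave 0 to 3.

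Some values near 0 changed sign. Without the libraries rich in cortical markers, Aldh1a3 in bulk was at -0.14. With the density covariate, D1 gave 0.04 for Aldh1a1 and 0.09 for Crabp1, D2 gave 0.07 for Aldh1a1, 0.03 for Aldh1a2, 0.05 for Crabp1 and -0.04 for Rbp4, and D2 males gave -0.02 for Rdh10. As a ratio to density, D1 gave 0.04 for Aldh1a1, 0.05 for Aldh1a3, 0.06 for Cyp26b1 and 0.09 for Crabp1 and Crabp2, and D2 gave 0.06 for Aldh1a1, 0.07 for Aldh1a2 and Crabp2, 0.10 for Aldh1a3 and 0.02 for Crabp1. Library totals put Rbp4 in D2 at -0.14. Leaving out each library gave -0.19 to 0.20 for Aldh1a3, -0.23 to 0.08 for Cyp26b1 and -0.11 to 0.05 for Rdh10 in bulk, -0.07 to 0.03 for Crabp1 and -0.12 to 0.07 for Crabp2 in D1, and -0.25 to 0.02 for Crabp2 and -0.04 to 0.09 for Rbp4 in D2. Rdh10 in D2 stayed between 0.24 and 0.41, and Aldh1a2 in bulk between 0.68 and 0.94. For each change of sign or call the cause was not tested.

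Replicate numbers were not used as pairs in the fit reported. Deviations of same-numbered libraries were positively correlated in some pairs and negatively in others (bulk r from -0.60 to 0.57). These values do not settle whether the numbers pair the samples. With the replicate block Rdh10 in D2 was at 0.36 with an adjusted p of 0.0182 in edgeR, Aldh1a2 in bulk was at 0.78 with an adjusted p of 0.134, and the count of the 9 genes called did not change in any comparison. The counts over all genes did change, from 687 to 0 in bulk and from 3671 to 236 between D2 and D1 with RXRa, so the shares of genes called given for those comparisons do not hold with the block. The depth limits Aldh1a3 in bulk, with 6 to 16 reads in a library, and in the cell-type libraries evenly spread reads limit what can be seen of all genes near the silent-gene density.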

Other observations

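A D2 female library whose title carries the letter that marks the RXRa libraries while its vector label names EGFP entered no comparison. It held 2941 counts of the vector RXRa sequence, 177.7 CPM, and its silent-gene density was 0.477 CPM per kb. In it Rdh10 had 25.7 CPM, a ratio of 1.93 to that density, and Rbp4 had 7.56 CPM, a ratio of 1.83. Dhrs3 had 26.1 CPM, Aldh1a1 55.0 CPM, Aldh1a2 46.5 CPM, Aldh1a3 22.2 CPM, Cyp26b1 10.3 CPM, Crabp1 6.41 CPM and Crabp2 2.90 CPM.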
